A study of Mus musculus with 6 samples.

Results

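The enzymes that attach ubiquitin to proteins and those that take it off were measured in mouse spermatogonial stem cell preparations and in total testicular cells. The set holds every probe set annotated to a single gene whose symbol starts with Ube2, or with Usp or Uchl followed by a digit, leaving out Ube2c and Usp18. A probe set is the group of short probes that reports 1 transcript on an Affymetrix Mouse430A_2 array. The rule found 120 of the 22626 tested probe sets, covering 67 of 12393 named genes: 26 conjugating enzyme genes, 38 Usp genes and 3 Uchl genes. In the first group, 3 arrays carry the title spermatogonial stem cells, and their source text names cells positive for human CD4 from the testis of CD4HAglo transgenic mice. The second group is 3 arrays titled total testicular cells, of the same transgenic mice, for which the source text names CD4-negative cells, so title and source differ. In these mice a truncated Stra8 promoter drives human CD4, cells displaying it were collected with magnetic beads, and each stem cell preparation pooled 50 males. Both groups therefore carry the transgene. No label gives the age or strain of the mice, and none says whether the total cell samples came from separate animals, so p-values measure the spread between these samples.

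Ubiquitin is a small protein that is passed from an activating enzyme (E1) to a conjugating enzyme (E2, the Ube2 genes) and then, with the help of a ligase (E3), to a target protein. Deubiquitinating enzymes, of which the Usp and Uchl families are a part, cut it off again. In the testis the system marks histones during meiosis and sperm chromatin remodelling and clears proteins while spermatids shed their cytoplasm, and in mice male fertility depends on several of these enzymes.

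The samples themselves set limits on this comparison. Of 15 macrophage markers 11 rose in the stem cell arrays and 0 fell, with summed linear signals of 2865 to 10577 in stem cell arrays and 289 to 432 in total cell arrays. Stem cell array 1 had the highest macrophage mean (log2 8.23, against 6.76 and 6.50 on stem cell arrays 2 and 3), and the total cell arrays lay between 3.64 and 4.14. The 9 measured markers of undifferentiated spermatogonia averaged 3.12 to 3.29 in stem cell arrays and 3.20 to 3.31 in total cell arrays. Of them 0 passed, and Lin28a was not above background on any array. Without overlap, 1 was higher (Itga6, 0.99) and 1 lower (Id4, -0.55). The 4 measured markers of differentiating spermatogonia averaged 5.225 to 5.552 in stem cell arrays and 5.001 to 5.142 in total cell arrays, and 0 passed. Without overlap, 2 of these were higher, with Stra8 at 1.01 (limma adjusted p = 0.0832), and 0 lower. Of 8 Sertoli cell markers and of 6 lymphocyte markers, 2 each passed as higher and 0 as lower. The 9 measured markers of meiotic spermatocytes averaged 7.74 (stem cell array 1) to 8.08 in stem cell arrays and 8.07 to 8.16 in total cell arrays. Of these 0 passed, and without overlap 1 was higher and 3 lower. Spermatid markers were as high in stem cell arrays (11.39 to 11.82) as in total cell arrays (11.41 to 11.84). The 5 measured Leydig cell markers averaged 6.50 to 8.71 in stem cell arrays and 5.17 to 6.23 in total cell arrays. Because these are bulk samples, fewer cells of a type and less RNA per cell cannot be told apart. The part of these other cell types in the values below was not tested.

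Promoter sequences of 4 genes are shown because they had the 2 lowest and the 2 highest differences among genes whose groups did not overlap and that have a single entry in the RefSeq promoter table (GRCm38.p6). Each runs from 250 bases before to 50 bases after the annotated start, 5′ to 3′ on the gene's strand, and capitals mark 3 motifs on either strand. The GC box is spelled GGGCGG, and the CCAAT box is its own spelling. The CRE half-site is spelled TGACG. Ube2d2b (chr5:107829912-107830211, plus strand) and Usp20 (chr2:30982029-30982328, plus strand) had the lower values in stem cell arrays. Ube2g1 (chr11:72607011-72607310, plus strand) and Ube2d1 (chr10:71285213-71285512, minus strand) had the higher ones.
Ube2d2b: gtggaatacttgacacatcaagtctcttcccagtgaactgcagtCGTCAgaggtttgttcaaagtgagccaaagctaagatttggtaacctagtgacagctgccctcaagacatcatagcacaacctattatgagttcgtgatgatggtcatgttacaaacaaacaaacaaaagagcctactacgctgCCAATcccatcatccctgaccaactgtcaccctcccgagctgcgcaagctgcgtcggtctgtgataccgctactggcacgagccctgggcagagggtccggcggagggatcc
Usp20: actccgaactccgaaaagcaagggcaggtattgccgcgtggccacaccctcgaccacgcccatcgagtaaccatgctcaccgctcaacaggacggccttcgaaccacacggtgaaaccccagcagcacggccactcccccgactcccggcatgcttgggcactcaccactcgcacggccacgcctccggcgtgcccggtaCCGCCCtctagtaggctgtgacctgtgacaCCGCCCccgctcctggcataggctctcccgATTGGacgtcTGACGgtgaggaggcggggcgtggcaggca
Ube2g1: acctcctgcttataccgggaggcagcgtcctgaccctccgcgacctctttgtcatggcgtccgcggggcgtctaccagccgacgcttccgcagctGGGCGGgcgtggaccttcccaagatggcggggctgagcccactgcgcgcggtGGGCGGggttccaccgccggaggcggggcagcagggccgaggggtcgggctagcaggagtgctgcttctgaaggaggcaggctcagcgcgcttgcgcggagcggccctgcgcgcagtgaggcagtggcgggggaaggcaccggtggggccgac
Ube2d1: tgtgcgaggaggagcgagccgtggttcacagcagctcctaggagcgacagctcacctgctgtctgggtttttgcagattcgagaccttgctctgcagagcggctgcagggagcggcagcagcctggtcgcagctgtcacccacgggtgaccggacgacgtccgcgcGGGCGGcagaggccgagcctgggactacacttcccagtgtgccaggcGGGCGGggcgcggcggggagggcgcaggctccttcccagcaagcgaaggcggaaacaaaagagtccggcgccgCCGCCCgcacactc
The Ube2d2b window held 0 GC boxes, 1 CRE half-site, 1 CCAAT box and 11 CG pairs. Usp20 had 2 GC boxes and 28 CG pairs, Ube2g1 had 2 and 33, and Ube2d1 had 3 and 30. Of the 59 promoter entries that matched 51 of the 67 genes, 71.2% held a GC box, against 35.7% of all 32851 entries, and the median number of CG pairs was 29 against 7. CRE half-sites, which also count inside a full CRE (TGACGTCA), stood in 39.0% of these entries and in 20.8% of all, the full CRE in 5.08% and 1.79%. CCAAT boxes were found in 27.1% and 37.4%, and TATAAA in 5.08% and 13.6%. A match is a description of letters and not a binding site.

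No gene of the set passed the adjusted threshold of 0.05 in either direction (0 of 67 lower and 0 of 67 higher by limma), and the smallest adjusted p was 0.0885, for Usp33. Over all genes 0.137% passed as lower and 1.63% as higher. At an unadjusted p under 0.05, 7 of the 67 were lower in stem cell arrays, where 13.1% of all genes were, and 5 were higher, where 11.8% of all genes were. The groups did not overlap for 16 genes with lower and 7 genes with higher values in stem cell arrays, against 19.2% and 13.8% of all genes. These shares lay near those of all genes. By the same unadjusted criterion, centring each array on its median gave 13 lower and 5 higher genes, and quantile normalization gave 4 and 5.

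Differences were small. On the log2 scale, stem cells minus total cells, they ran from -0.67 for Ube2d2b to 0.62 for Ube2g1, 60 of the 67 were under 0.5 in size, and 0 reached 1, as 615 of all 12393 genes did. The median was -0.14, against -0.05 over all genes, and 46 of the 67 differences were negative (68.7%, against 57% of all genes). The 95% confidence interval lay within 1 log2 unit of 0 for 62 genes and within 0.5 for 24. In simulated data with the spread of these 22626 probe sets, 8% of 50 changes of log2 0.5 were recovered and 58% of 50 changes of log2 1. Most differences in this set were under 0.5. The simulation drew every value independently, with the same spread for both groups. The real stem cell arrays were less alike than the total cell arrays, so these rates may not carry over.

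**Figure D1:**
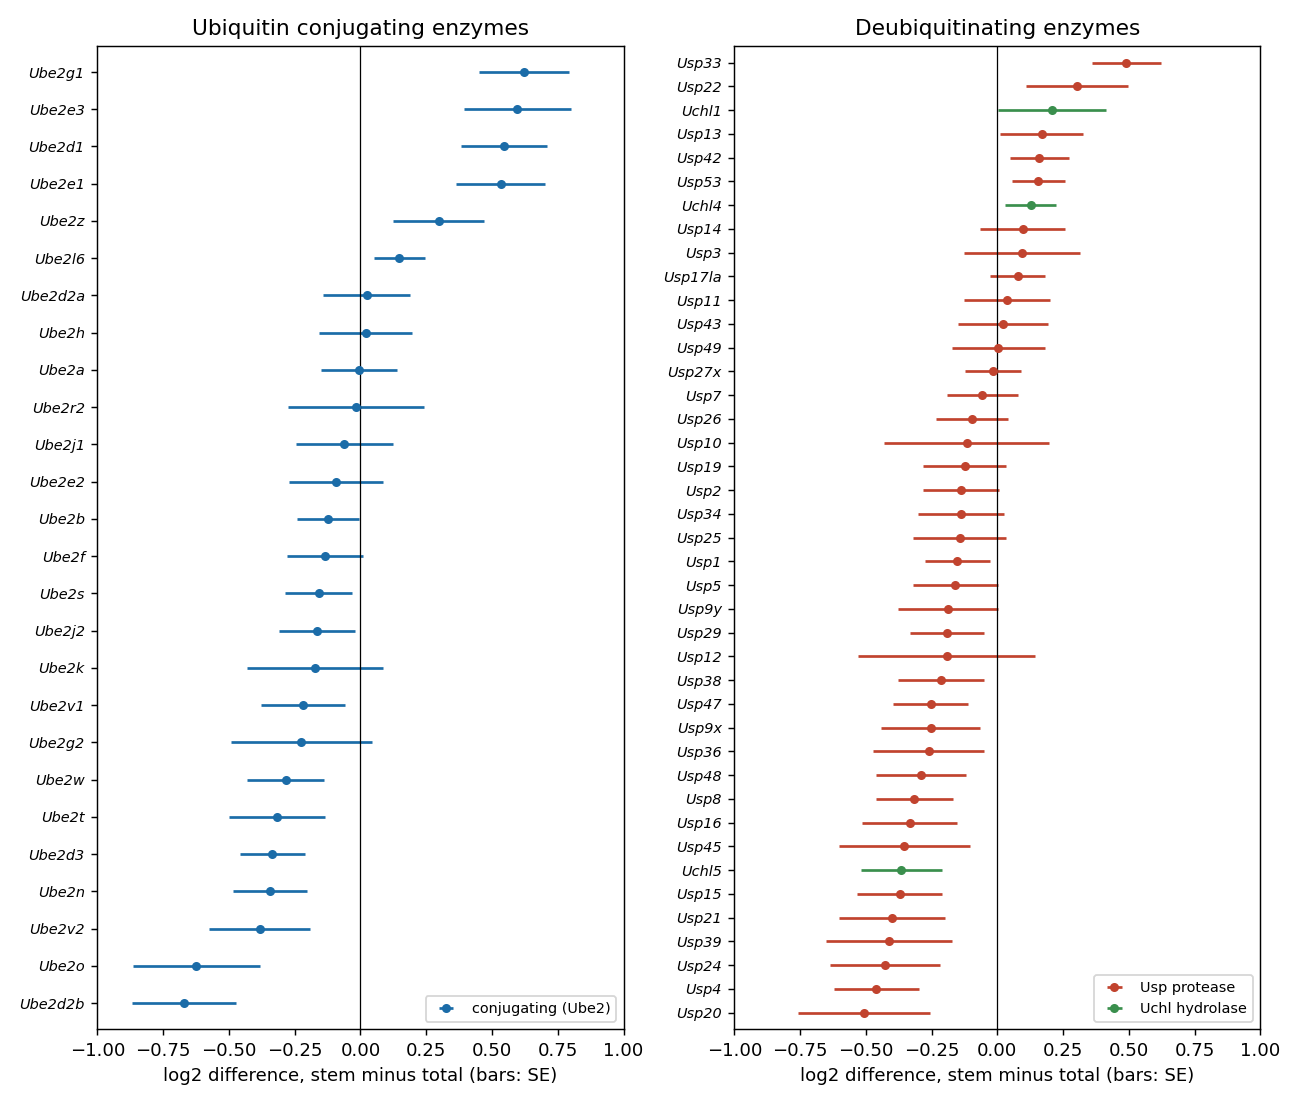
Log2 difference, stem cell minus total cell arrays (horizontal axis), of each of the 26 conjugating enzyme genes (left) and the 38 Usp and 3 Uchl genes (right), ordered by value, with limma standard errors as bars. The points run from -0.67 (Ube2d2b) to 0.62 (Ube2g1), and 46 of the 67 lie below 0.

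Among the conjugating enzymes, the UBCH5 and UBE2E families, which start ubiquitin chains for many ligases, had differences from -0.67 to 0.60. Ube2d2b, a close paralog of Ube2d2a, had log2 values of 8.10, 8.81 and 8.27 on stem cell arrays 1, 2 and 3, against 9.02, 9.29 and 8.89 on the total cell arrays. All 3 stem cell values lay below all 3 others. Its difference was -0.67 ± 0.20 (SE, limma adjusted p = 0.104), -0.85 within the fluidics round that holds stem cell array 1 and -0.47 within the round of stem cell array 2. With the fluidics round as a block the adjusted p was 0.0427, which rests on stem cell arrays 1 and 2, since stem cell array 3 ran alone in its round. Without stem cell replicate 2 the adjusted p was 0.0313 (difference -0.88). In that setting 4.25% of all genes passed as lower, against 0.137% with all arrays.

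Ube2e3 had 7.12, 6.63 and 6.46 on the stem cell arrays, against 6.01, 6.31 and 6.09 on the total cell arrays (difference 0.60 ± 0.20 SE, adjusted p = 0.134). The groups did not overlap, and stem cell array 1 stood highest. Ube2e1 had 5.96, 5.67 and 5.91, against 5.23, 5.28 and 5.42 on the total cell arrays (0.53 ± 0.17 SE, adjusted p = 0.118). For Ube2e1 stem cell arrays 1 and 3 were alike, and all 3 stood above the total cell arrays. Ube2d1 was dim: its values of 3.03, 2.64 and 2.42 on the stem cell arrays stood against 2.11, 2.23 and 2.11 on the total cell arrays, of which 1 lay above the background of 2.15. Its difference of 0.55 ± 0.16 (SE, adjusted p = 0.108) reached 0.68 (adjusted p = 0.0323) without stem cell replicate 3. In that setting 6.42% of all genes passed as higher, against 1.63% with all arrays. Within the round of stem cell array 1 the differences of Ube2e3, Ube2e1 and Ube2d1 were 1.07, 0.63 and 0.92, and within the round of array 2 they were 0.32, 0.38 and 0.41. For Ube2d1 both total cell arrays of the first of these rounds were not above background, so the size is uncertain.

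Ube2d3 and Ube2d2a, the broadly used members of the UBCH5 family, depended on the probe set. The brightest Ube2d3 probe set had 10.63, 11.05 and 10.73 in stem cell arrays and 11.16, 11.20 and 11.06 in total cell arrays (-0.34 ± 0.12 SE, adjusted p = 0.153), with the top stem cell value just below the lowest total cell value. Leaving out stem cell replicate 2 brought it past the threshold (-0.46, adjusted p = 0.0422), a setting in which 4.25% of all genes passed as lower. Another Ube2d3 probe set had 6.62, 6.17 and 5.92 in stem cell arrays and 5.43, 5.81 and 5.61 in total cell arrays, a difference of 0.62 in the opposite direction (adjusted p = 0.136). Of the 7 Ube2d3 probe sets 2 were lower and 5 higher. The 4 probe sets of Ube2d2a ran from -0.52 to 0.24, and its brightest differed by 0.02 (95% interval -0.35 to 0.39). Near-identical paralogs can share probes in this family.

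The conjugating enzymes of the endoplasmic reticulum, where misfolded proteins are tagged for degradation, included 3 genes whose groups overlapped and Ube2g1. Ube2g1, grouped here with its relative Ube2g2, had 6.23, 6.06 and 5.93 in stem cell arrays, against 5.39, 5.62 and 5.34 in total cell arrays, and these ranges did not overlap. That was the largest positive difference of the set (0.62 ± 0.17 SE, adjusted p = 0.0932), 0.86 and 0.44 within the rounds of stem cell arrays 1 and 2. Ube2j1, which is needed for male fertility in mice, had 9.69, 9.64 and 10.22 in stem cell arrays and 9.94, 9.64 and 10.14 in total cell arrays. Its groups overlapped (-0.06, 95% interval -0.48 to 0.35).

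The RAD6 pair ubiquitinates histone H2B and the replication clamp, and mice without Ube2b are male sterile. Ube2b had 8.97, 9.02 and 9.09 in stem cell arrays and 9.22, 9.04 and 9.19 in total cell arrays (-0.12, 95% interval -0.39 to 0.14). Its X-linked twin Ube2a averaged 7.64 in both groups (-0.01, 95% interval -0.33 to 0.32). A dim second probe set of Ube2a differed by 0.49 (adjusted p = 0.125). In both genes the brightest probe sets overlapped between the groups.

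Ube2n, which builds ubiquitin chains used in DNA repair and inflammatory signalling, had 8.03, 7.74 and 7.93 in stem cell arrays and 8.22, 8.34 and 8.18 in total cell arrays. Its difference of -0.34 ± 0.14 (SE, adjusted p = 0.180) was -0.17 within the round of stem cell array 1 and -0.60 within that of array 2, the lowest of its 3 stem cell values. The 3 genes of Ube2n and its partner subunits had differences from -0.38 to -0.22. Ube2o, a large enzyme that combines conjugating and ligase activity, had 3.68, 4.17 and 4.29 in stem cell arrays and 4.49, 4.45 and 5.07 in total cell arrays (-0.62 ± 0.24 SE, adjusted p = 0.168). The groups were separate, but the difference within rounds was -1.10 with stem cell array 1 and -0.28 with stem cell array 2. Ube2z, which takes ubiquitin from the E1 enzyme Uba6, was 0.30 higher in stem cell arrays without overlap (adjusted p = 0.325).

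Several further conjugating enzymes had groups that overlapped. Ube2s, which extends chains for the anaphase-promoting complex, averaged 11.02 ± 0.23 in stem cell arrays and 11.18 ± 0.10 in total cell arrays (SD, n = 3 each). Ube2k, an enzyme that builds chains by itself, varied widely, with 9.89, 9.78 and 10.75 in stem cell arrays and 10.33, 9.95 and 10.64 in total cell arrays (-0.17, 95% interval -0.76 to 0.41). Ube2r2, a partner of cullin ligases, differed by -0.02 with an interval of -0.60 to 0.57. By contrast, Ube2l6, the conjugating enzyme of the interferon-induced modifier Isg15, was not above background on any array. Its values did not overlap (0.15), so it is 1 of the 7 genes counted as higher without overlap.

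**Figure D2:**
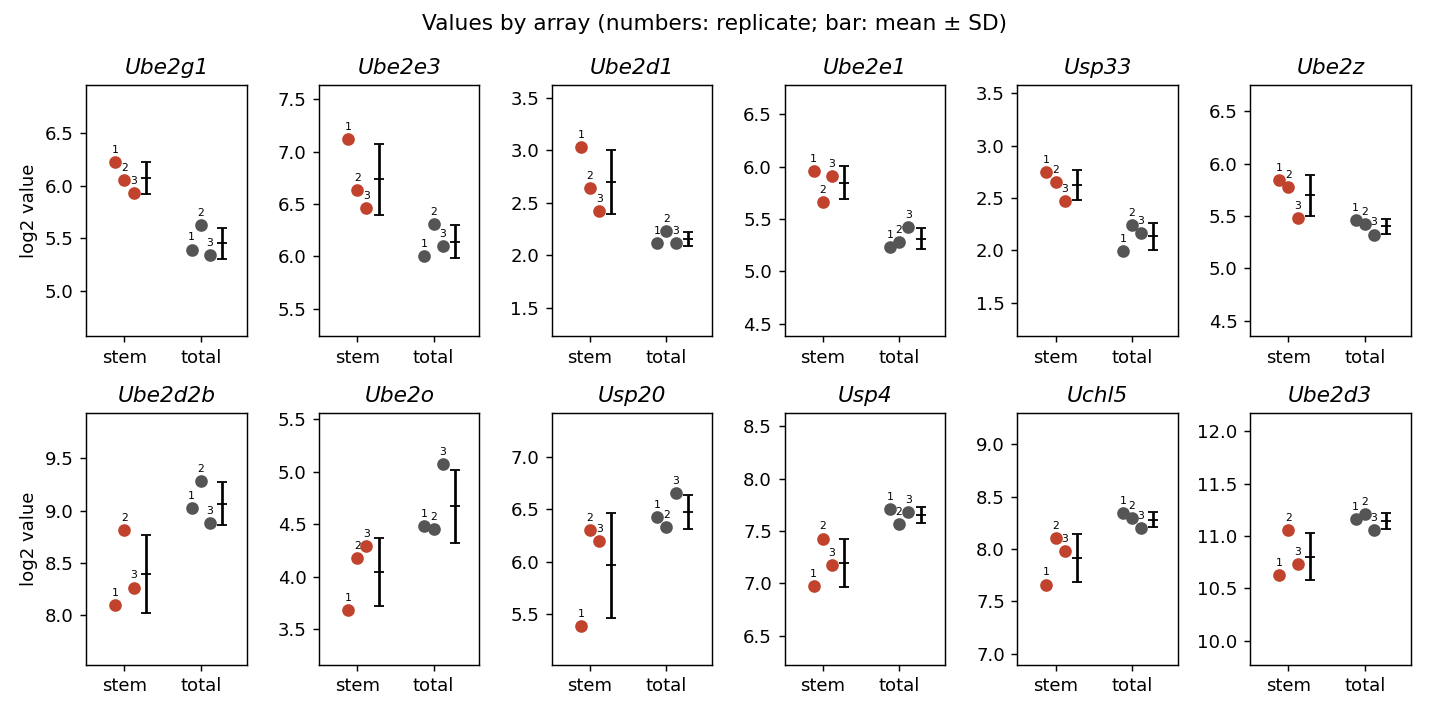
Log2 values of 12 genes on the 3 stem cell arrays (red, left in each panel) and the 3 total cell arrays (grey, right), with replicate numbers and the mean ± SD beside them; every vertical axis spans the same number of log2 units. The groups do not overlap in any of these panels, and in the upper row stem cell array 1 is highest each time.

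Among the deubiquitinating enzymes, Usp33 and its close relative Usp20, both known for acting on cell surface receptors, had differences of opposite sign. Usp33 had 2.75, 2.65 and 2.47 in stem cell arrays and 1.99, 2.24 and 2.16 in total cell arrays (0.49 ± 0.13 SE, adjusted p = 0.0885). All stem cell values were higher, yet 1 of the total cell values was not above background, so the size is uncertain. The difference was 0.67 and 0.41 within the rounds of stem cell arrays 1 and 2. Leaving out stem cell replicate 3 brought it past the threshold (0.56, adjusted p = 0.0412), a setting in which 6.42% of all genes passed as higher. Usp20 had 5.38, 6.31 and 6.20 in stem cell arrays and 6.42, 6.34 and 6.65 in total cell arrays (-0.51 ± 0.25 SE, adjusted p = 0.253). Stem cell array 1 carried most of it: the difference was -1.15 within the round of array 1 and -0.03 within the round of array 2.

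Other Usp genes with separate groups were also lowest on stem cell array 1, and stem cell array 3, alone in its round, had no total cell array to be set against there. Usp4, which acts on splicing factors, had 6.98, 7.43 and 7.18 in stem cell arrays and 7.71, 7.57 and 7.68 in total cell arrays (-0.46 ± 0.16 SE, adjusted p = 0.140), with -0.72 and -0.14 within the rounds of stem cell arrays 1 and 2. Against the mean of the total cell arrays, Usp4 was -0.68, -0.23 and -0.48 on stem cell arrays 1, 2 and 3. Its paralog Usp15 differed by -0.37 (adjusted p = 0.206), with -0.76 and -0.04 within these rounds. Usp21, an enzyme that removes ubiquitin from histone H2A, differed by -0.40 (adjusted p = 0.265), with -0.73 and -0.02, and stem cell array 3 was -0.43 against the total cell mean. Usp16, also an H2A enzyme, differed by -0.33 (-0.68 and -0.25 within rounds). Usp8, an endosomal sorting enzyme that is also found at the acrosome, had 8.40, 8.86 and 8.58 in stem cell arrays and 8.94, 8.88 and 8.96 in total cell arrays (-0.32, adjusted p = 0.226). Its stem cell arrays 1 and 3 were -0.53 and -0.35 against the total cell mean.

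Of the 16 genes with lower values and no overlap, 14 were lowest on stem cell array 1, and all 7 with higher values were highest there. Among these 7, Ube2l6 was not above background on any array. Over all genes without overlap the shares were 76.9% and 79.2%. Set against the total cell mean, the 67 genes had a median of -0.24 on stem cell array 1, -0.06 on array 2 and -0.01 on array 3. All genes had -0.09, -0.06 and 0.00. Among genes with a mean log2 value above 7, the medians on stem cell array 1 were -0.43 for the 26 of the set and -0.41 for all 2017. Without stem cell replicate 1 the median difference of the set was -0.053, and the unadjusted criterion gave 3 lower genes and 5 higher. That array also had the highest macrophage and Leydig cell marker levels and the lowest mean of the spermatocyte markers. The part of these cell types in these values was not tested.

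**Figure D3:**
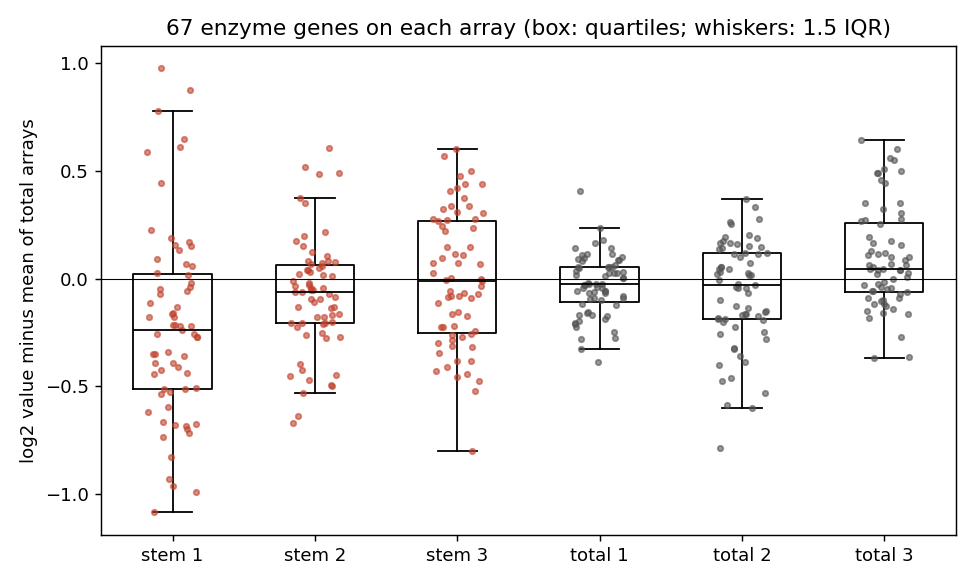
Log2 value of each of the 67 genes minus the mean of the total cell arrays (for a total cell array, the mean of the other two), by array; boxes show quartiles and the line in each the median. The median is -0.24 on stem cell array 1 and -0.06 and -0.01 on stem cell arrays 2 and 3.

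Uchl5 and Usp14 work at the proteasome, the protease that degrades ubiquitinated proteins, and neither passed the threshold. Uchl5, which trims chains there, had 7.66, 8.10 and 7.98 in stem cell arrays and 8.34, 8.30 and 8.20 in total cell arrays (-0.37 ± 0.15 SE, adjusted p = 0.191). Its stem cell values all lay lower, by -0.61 and -0.20 within the rounds of arrays 1 and 2. Usp14, the other chain-trimming enzyme of that complex, averaged 5.92 ± 0.11 in stem cell arrays and 5.82 ± 0.10 in total cell arrays (SD, n = 3 each), with overlapping groups and an interval of -0.27 to 0.46 for the difference. Its 3 probe sets had differences from -0.05 to 0.28.

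Uchl1 is widely used as a marker of spermatogonia, and it is also abundant in neurons. It had 5.91, 5.66 and 6.22 in stem cell arrays and 5.46, 5.81 and 5.89 in total cell arrays. The groups overlapped, and the difference was 0.21 ± 0.20 (SE, adjusted p = 0.571, 95% interval -0.25 to 0.67). Uchl4 was not above background on any array. A probe set shared by Uchl3 and Uchl4, which is not counted among the members, had 8.98, 9.34 and 9.00 in stem cell arrays and 9.39, 9.42 and 9.31 in total cell arrays (-0.26, adjusted p = 0.265). Uchl3 by itself was not analysed here.

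On their brightest probe sets, enzymes of chromatin and DNA repair overlapped between the groups for the most part. Usp1, which removes ubiquitin from the Fanconi anaemia protein FANCD2 and the replication clamp, had 10.03, 10.36 and 10.30 in stem cell arrays and 10.35, 10.51 and 10.28 in total cell arrays on its brightest probe set (-0.15, adjusted p = 0.483). Its other probe sets did not overlap and differed by -0.45 and -0.72 (adjusted p = 0.140 and 0.104). Usp7, which stabilizes the ligase of the tumour suppressor p53, averaged 7.60 ± 0.08 in stem cell arrays and 7.65 ± 0.02 in total cell arrays (SD, n = 3 each). A dimmer probe set of Usp7 was lower in stem cell arrays without overlap (-0.34, adjusted p = 0.283). Usp22, the H2B enzyme of the SAGA coactivator, differed by 0.30 with overlap (adjusted p = 0.373).

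Among genes known for a role in the male germ line, the probe sets of Usp2 differed. Usp2, whose loss lowers male fertility in mice, had 9.36, 9.68 and 9.87 in stem cell arrays and 9.82, 9.66 and 9.84 in total cell arrays on its brightest probe set (-0.14, 95% interval -0.46 to 0.19), where the groups overlapped. Its other probe set had 8.004, 8.56 and 8.64 in stem cell arrays and 8.85, 8.75 and 8.81 in total cell arrays, with every stem cell value lower (-0.40, adjusted p = 0.210). Usp26, an X-linked testis gene, was above background on 1 of 6 arrays, Usp42 on 1, Usp29 on 2 and Usp25 on 3, so a change in these 4 could be missed. Usp9y, the Y-linked partner of Usp9x, averaged 2.74 ± 0.31 in stem cell arrays and 2.93 ± 0.18 in total cell arrays (SD, n = 3 each). On their brightest probe sets the 6 members on the sex chromosomes had differences from -0.25 to 0.04. Other probe sets of Usp9x and Ube2a lay outside this range, up to 0.53 and 0.49.

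Probe sets of 1 gene often pointed different ways. Of the 32 genes with several probe sets, 14 had differences of both signs, and of the 24 with at least 2 probe sets whose mean was above background, 10 did. The widest spread was that of Usp48, a nuclear Usp. Its brightest probe set differed by -0.29 (adjusted p = 0.332). Another had 3.08, 3.75 and 3.21 in stem cell arrays and 4.38, 3.91 and 4.80 in total cell arrays, a difference of -1.02 ± 0.27 (SE, adjusted p = 0.0844), the largest of the 120. The remaining Usp48 probe set had 4.63, 4.21 and 4.06 in stem cell arrays and 3.85, 3.62 and 3.69 in total cell arrays, a difference of 0.58 in the other direction (adjusted p = 0.139). Both of these probe sets separated the groups completely, with opposite signs. Usp9x, an X-linked protease, ran from -0.25 on its brightest probe set to 0.53, and Usp19, an enzyme with a form anchored in the endoplasmic reticulum, from -0.48 to 0.10.

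**Figure D4:**
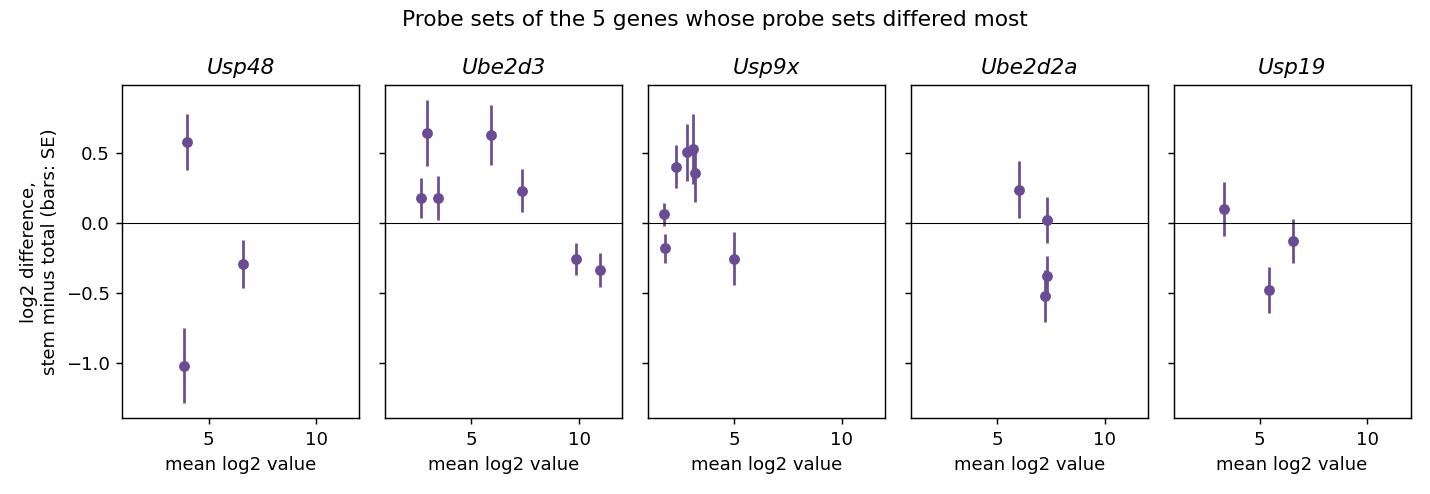
Log2 difference, stem cell minus total cell arrays (vertical axis, bars: limma SE), against the mean log2 value over the 6 arrays (horizontal axis) for every probe set of the 5 genes whose probe sets differed most. Usp48 spans -1.02 to 0.58, and for Ube2d3 the brightest probe sets lie below 0 while the dimmer ones lie above it.

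The share of negative differences was highest among the brightest genes, in the set and over all genes. Of the 26 genes with a mean log2 value above 7, 25 were lower in stem cell arrays and 1 was higher, with a median of -0.21. Among all 2017 genes of that brightness 79.8% were lower, with the same median of -0.21. Between 5 and 7, 8 of 16 were lower (median -0.05), against 71.6% of all genes there (median -0.27). Of the 17 from background to 5, 10 were lower (58.8%), against 46.9% of all genes there. Of the 8 not above background, 3 were lower (37.5%), against 44.1% of all genes. The share thus did not climb steadily with level in the set, and no test was made of it.

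**Figure D5:**
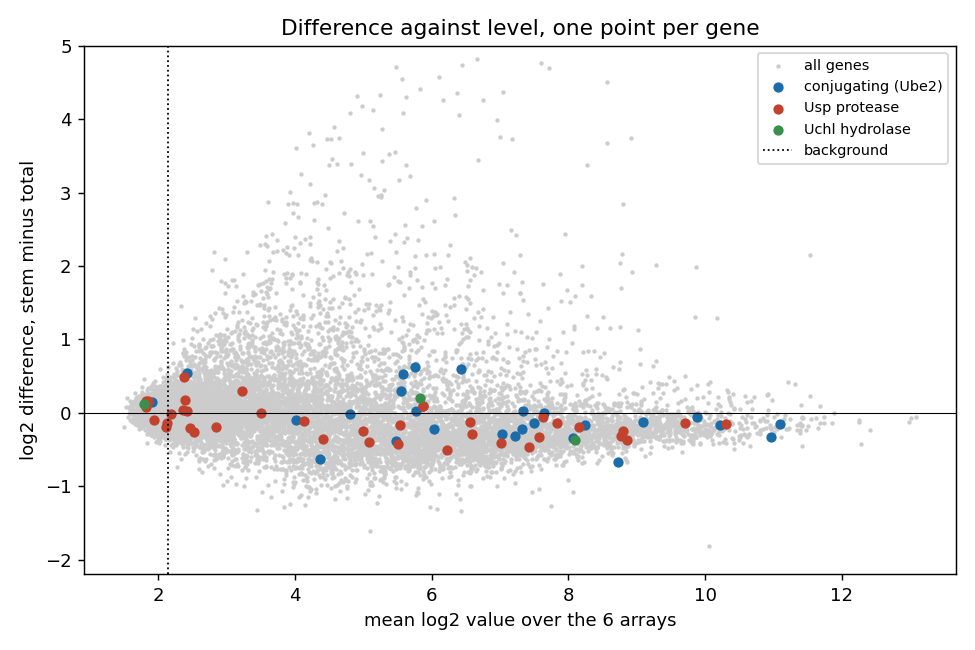
Log2 difference, stem cell minus total cell arrays (vertical axis), against the mean log2 value over the 6 arrays (horizontal axis) for the 67 enzyme genes (coloured) and all genes (grey); the dotted line is the background of 2.15. At values above 7, 25 of the 26 enzyme genes lie below 0, as do 79.8% of all genes there.

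In the rest of the pathway, 79 of 122 listed genes were measured, and 0 passed in either direction by limma. The unadjusted criterion gave 17 lower and 6 higher of the 79, where 13.1% and 11.8% of all genes were. The median difference over the 79 was -0.24, against -0.05 over all genes, and 61 were negative (77.2%, against 57% of all genes). These lists were drawn up with earlier results known, and nothing is read from these counts. Among 33 ligase genes, Ube3a, the ligase lost in Angelman syndrome, had 6.79, 7.55 and 6.82 in stem cell arrays and 7.78, 7.98 and 7.76 in total cell arrays (-0.79 ± 0.22 SE, adjusted p = 0.0902). With stem cell replicate 2 left out Ube3a was past the threshold (-1.04, adjusted p = 0.0212), where 4.25% of all genes passed as lower. Nedd4, a ligase of membrane proteins, had 6.89, 6.10 and 5.46 in stem cell arrays and 5.11, 5.34 and 4.83 in total cell arrays, with no overlap (1.06 ± 0.33 SE, adjusted p = 0.112). With the fluidics round as a block Nedd4 differed by 1.43 (adjusted p = 0.0314).

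The 6 measured activating enzyme genes ran from -0.50 for Atg7, which starts the conjugation step of autophagy, to 0.22 for Uba7, the E1 enzyme of Isg15. Among 22 genes of other deubiquitinating enzyme families the ends were Zup1 (-0.69, adjusted p = 0.154) and Mpnd (0.80, adjusted p = 0.154). Of 9 cofactors, Wdr20, an activator of Usp12, had the lowest difference (-0.61, adjusted p = 0.152) and Uimc1, which recruits a DNA repair complex to ubiquitin chains, the highest (0.41, adjusted p = 0.182). Of 9 ubiquitin-like modifiers and their proteases, Atg12 of the autophagy pathway was lowest (-0.53, adjusted p = 0.136) and Sumo3 highest (0.58, adjusted p = 0.154). Zup1, Wdr20 and Atg12 were past the threshold without stem cell replicate 2, where 4.25% of all genes passed as lower. Mpnd was past it without stem cell replicate 3, where 6.42% of all genes passed as higher.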

How the data were processed

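Per the labels' protocols, biotin-labelled RNA from 3 stem cell and 3 total testicular cell samples went onto separate arrays. The authors deposited log2 probe set values (1.2 to 13.2, as the range shows); MAS5 and RMA appear in the submitters' processing notes without a stated use, and the sources used here do not say which of them made the values. A single chip lot and scanner served every array, per the file headers. The headers give times and not rounds. The 3 fluidics rounds were set here from the times of day, with a gap of at least 15 minutes starting a new round. Round 1 held stem cell array 1 and total cell arrays 1 and 3, round 2 held stem cell array 3 alone, and round 3 held the pair numbered 2. A fit with the round as a block therefore rests on stem cell arrays 1 and 2.

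Groups and replicate numbers came from the titles. The 64 control probe sets were set aside. Of the 22626 tested, 20380 have 1 gene, 691 several and 1555 none. The brightest probe set by mean stands for its gene. Values were compared with limma 3.58.1 in R 4.3.3 (with an intensity trend; degrees of freedom 4 residual, 5.21 prior; two-sided; Benjamini-Hochberg over all 22626 probe sets, threshold 0.05). Differences are stem cells minus total cells. Background is the 95th percentile of the means of 27 bacterial control probe sets (2.15). On each array 79.7% to 84.1% of probe sets exceeded it. Signal above background and the number of arrays limit the precision. Brightness of different probe sets is not comparable between genes. Correlations between arrays were 0.970 to 0.984 among stem cell arrays and 0.992 to 0.995 among total cell arrays.

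The members, the pathway and marker lists and the rules were chosen with earlier results of these data known. Named were the 8 largest decreases and 7 increases without overlap, 25 listed genes, the 5 with the highest stem cell means and the 5 with the widest probe set spread (40 genes in all), with the ends of each pathway list. The 4 ubiquitin genes of the pathway lists were not analysed here. The fluidics module as a block was chosen after seeing the data; the other settings are named in the closing section. The procedure was tested on simulated data: 92% of 50 changes of log2 2 and 100% of 50 of log2 4 were recovered, with 4 false calls among 133. Gene positions and promoters are RefSeq's (GRCm38.p6).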

Additional observations from a re-analysis of the deposited data

How the results depend on the processing

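With all arrays, 0 genes and 0 probe sets of the set passed in either direction. This held under quantile normalization, median centring, the filter on dim probe sets, no intensity trend and robust empirical Bayes. It also held with the mean of a gene's probe sets (genes only). The fluidics module as a block compares stem cell array 2 with total cell array 3 alone, so its calls cannot answer this question. With the replicate number as a block 1 gene (Ube2d2b) and 2 probe sets were lower, and 1 pathway gene was lower and 1 higher. Same-numbered arrays deviated together with correlations of -0.01, 0.01 and 0.30. These values do not settle whether the numbers pair the samples. With the fluidics round as a block 1 gene and 1 probe set were lower, 1 pathway gene was higher, and 12 genes of the set were lower at an unadjusted p under 0.05. That count was 4 with quantile normalization and 13 with median centring. Median centring moved the median of all genes by -0.11 and that of the set to -0.25. Leaving out 1 array in turn gave 0 to 2 genes lower, 0 to 2 higher, 0 to 6 probe sets lower, 0 to 2 higher, 0 to 11 pathway genes lower and 0 to 2 higher. At an unadjusted p under 0.05 it gave 2 to 12 genes lower and 3 to 6 higher, and the median ran from -0.18 to -0.053. The 6 lower probe sets and the 11 pathway genes came without stem cell replicate 2, the 2 higher genes without stem cell replicate 3. The unadjusted count of 12 lower genes came without stem cell replicate 2 or 3, and that of 2 without total cell replicate 1 or 3. Over all genes the 17 lower and 202 higher calls became 93 and 644 with the replicate block and 48 and 719 with the round as a block. They became 46 and 237 with median centring, 2 and 80 with no intensity trend, and 0 to 527 and 28 to 796 with 1 array left out. The 527 lower calls came without stem cell replicate 2 and the 796 higher calls without stem cell replicate 3.

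Of 694 values of 50 named genes under these settings, 652 kept their direction and side of the threshold, 15 newly passed and 27 changed sign, these last for differences that had not passed. With the module as a block, which compares stem cell array 2 with total cell array 3 alone, these were Uchl1 (-0.23), Ube2a (0.14), Usp1 (0.079), Usp22 (-0.033), Ube2s (0.165), Usp19 (0.062) and Uba7 (-0.26). With quantile normalization they were Ube2a (0.064) and Usp7 (0.0053), with median centring Ube2d2a (-0.088) and Usp14 (-0.015), and with the round as a block Usp25 (0.0021). Leaving out arrays, Ube2a ran from -0.085 to 0.072, Ube2d2a from -0.051 to 0.15, Ube2j1 from -0.25 to 0.055, Ube2r2 from -0.24 to 0.19, Usp25 from -0.30 to 0.011, Usp26 from -0.22 to 0.039, Ube2k from -0.48 to 0.0080 and Uba7 from -0.014 to 0.39. The cause of these changes was not tested.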
